A study of Sus scrofa with 40 samples.

Results

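The genes described here are members of the insulin-like growth factor (IGF) axis: the hormone IGF1, the IGF binding proteins IGFBP1 and IGFBP2, and the growth hormone receptor GHR. They were taken as every probe set whose single gene symbol in the array's platform annotation was IGF1, IGFBP1, IGFBP2, IGFBP3 or GHR. The annotation held 4 of the 5 symbols among its 6765 single gene symbols, which gave 7 of 23999 probe sets: 3 for IGF1, 2 for IGFBP1, 1 for IGFBP2 and 1 for GHR. No probe set carried IGFBP3 as its single symbol, and that gene was not analysed here. The study compared prepubertal Yorkshire gilts of 6 months from lines with low or high residual feed intake (RFI), the feed an animal eats beyond the amount predicted from its growth and upkeep, and low RFI marks feed efficiency. In each line 5 gilts were restricted to 80% of maintenance feed for 8 days and 5 ate ad libitum. RNA of the liver and of backfat (its middle layer, taken at the tenth rib) was hybridised to 1-colour Affymetrix porcine arrays, which gave 8 groups of 5 arrays: low RFI restricted, low RFI ad libitum, high RFI restricted and high RFI ad libitum, in each tissue. Every pig, controls included, carried 1 copy of a variant MC4R allele, MC4R being a melanocortin receptor of appetite control. The labels do not say which liver array and which backfat array came from the same pig.

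Growth hormone released by the pituitary binds its receptor, encoded by GHR, and in the liver this switches on IGF1, which is the main source of the hormone in blood. Many other tissues, fat among them, also make IGF1 for local use. In blood and tissue fluid IGF1 is carried by binding proteins that set how much of it can reach its receptor; IGFBP1 is a liver product that insulin represses and fasting induces in many mammals, and IGFBP2 is another binding protein made largely in liver.

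The deposited values were linear intensities per probe set. The trimmed mean of every array lay between 500.09 and 500.15, so that arrays were compared without further scaling, and the array median ranged from 127 to 191. Probe sets entered the tests of a tissue if at least 5 of its 20 arrays read them above the array's 40th percentile, an intensity of 72.6 to 119; 6 of the 7 IGF axis probe sets were tested in liver, 4 in backfat and the same 4 in the comparison of the tissues. Hepatocyte markers (11 of 12 listed genes measured) had a mean log2 intensity of 14.6 to 15.3 on the liver arrays and 5.07 to 12.4 on the backfat arrays, and adipocyte markers (5 of 7 measured) one of 3.95 to 5.60 in liver and 12.0 to 13.3 in backfat, so each tissue carried the markers of its label. The backfat value of 12.4 belonged to low RFI restricted replicate 5; the other 19 backfat arrays lay between 5.07 and 8.65. Skeletal muscle markers (6 of 8 measured) ranged from 4.33 to 12.9 across backfat arrays. In both tissues the arrays numbered 1 and 2 differed from those numbered 3 to 5 in the log2 ratio of the 3' to the 5' actin control probe set, which was 2.25 ± 0.28 (SD, n = 8) against 1.32 ± 0.194 (n = 12) in liver and 2.27 ± 0.553 against 1.56 ± 0.163 in backfat. The labels give no date or batch for these numbers; each of the 8 groups holds 2 arrays of the first set and 3 of the second.

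Restriction was accompanied by a lower IGF1 signal in backfat at 1 of the IGF1 probe sets. That call was lost with the actin and GAPDH control ratios as covariates, and also within the arrays numbered 1 and 2 alone. In liver no tested IGF axis probe set changed past the threshold with restriction. The RFI lines did not differ past the threshold at any tested probe set in either tissue. Liver IGF1 probe set 1 had a log2 line difference of 0.31 in restricted and 1.23 in ad libitum pigs (limma adjusted p = 0.995 and 0.566). Its interaction of line and diet did not pass (limma adjusted p = 0.999), and that of IGF1 probe set 2 had the opposite sign. IGFBP2 and the brighter IGFBP1 probe set were strong in liver. In backfat that IGFBP1 probe set was near the lower limit of the array, at a median intensity of 45.4. IGFBP2 was weaker in backfat than in liver, at a median of 135, but was above the filter and tested. The dimmer IGFBP1 probe set was near the lower limit in both tissues. GHR and the brighter IGF1 probe sets were measured clearly in both.

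**Figure D1:**
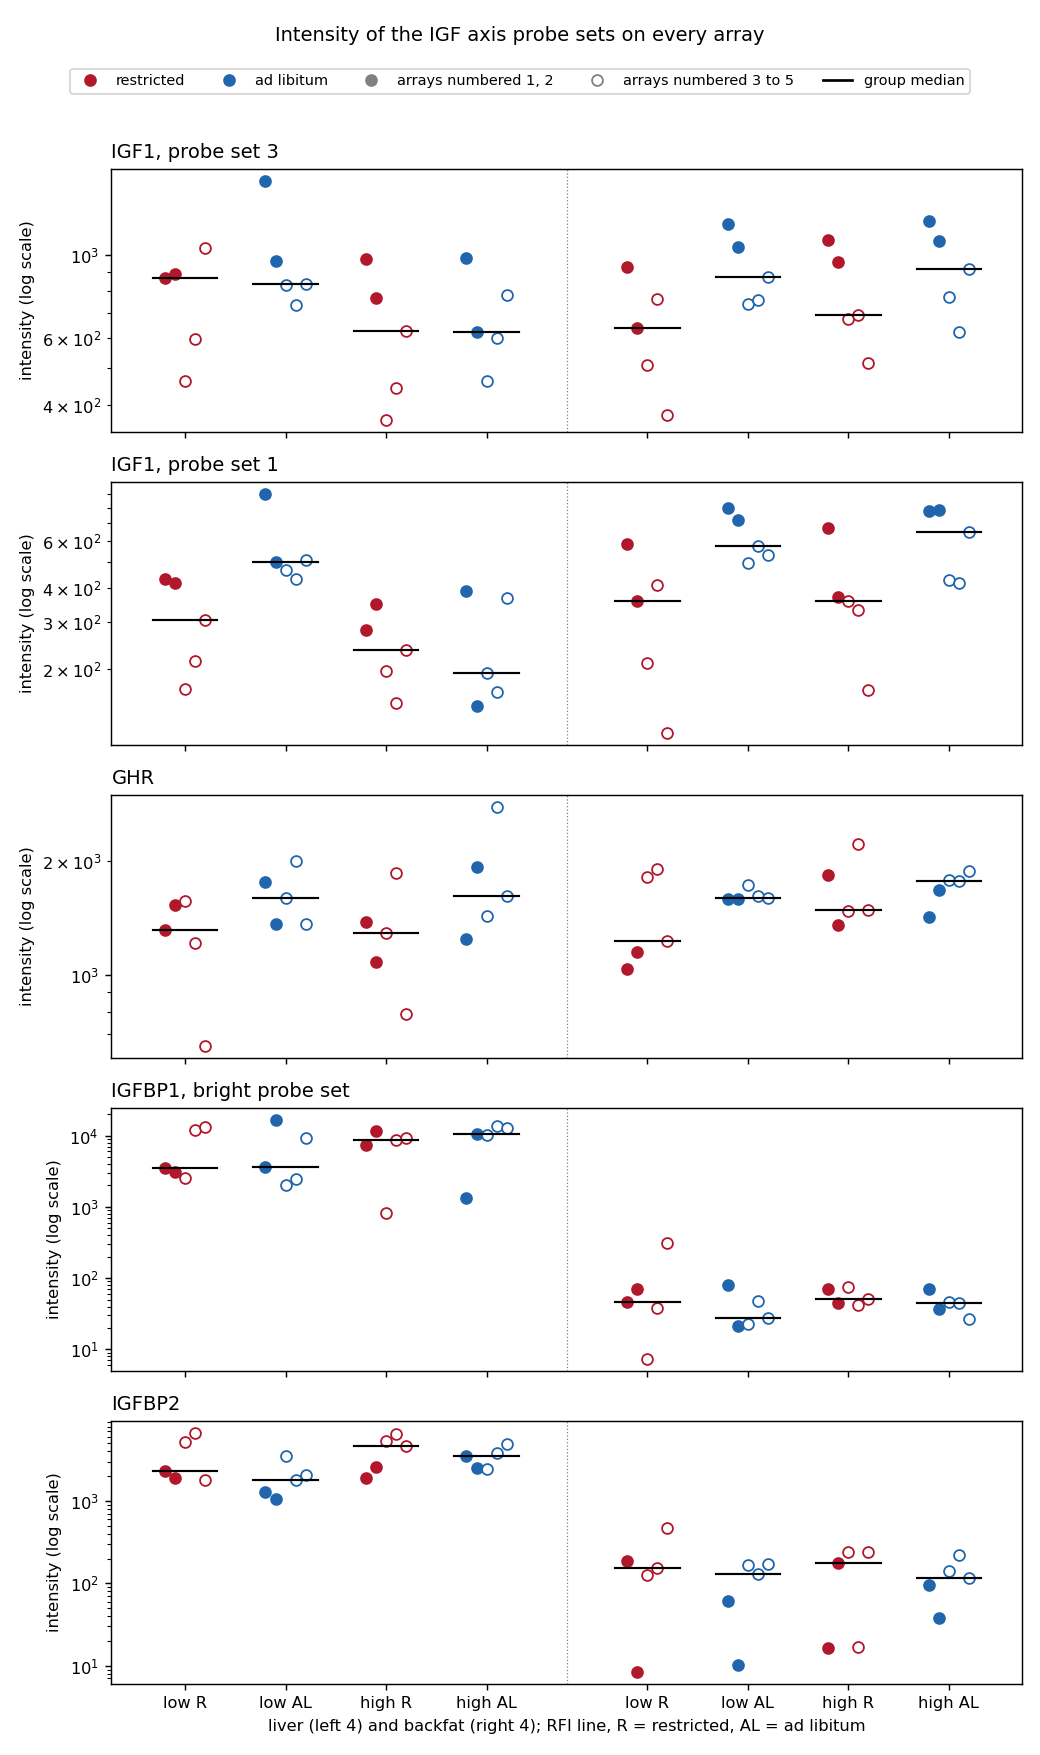
Intensity (log scale) of 5 probe sets of IGF1, GHR, IGFBP1 and IGFBP2 on each of the 40 arrays. Columns are the 8 groups, liver on the left and backfat on the right, with restricted (R, red) left of ad libitum (AL, blue); filled points are arrays numbered 1 and 2, open points those numbered 3 to 5, and bars are group medians of 5 arrays. IGFBP1, shown by its brighter probe set, and IGFBP2 are higher on every liver array than on any backfat array. IGF1 probe set 1 is lower in restricted than in ad libitum backfat on most arrays.

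The IGF1 probe sets are numbered 1, 2 and 3 here, in the order of their identifiers. Probe sets 1 and 3 exceeded the 40th percentile on all 40 arrays. Probe set 2 did so on 10 of 20 liver arrays and 2 of 20 backfat arrays, with intensities of 23.7 to 136 in liver and 11.4 to 108 in backfat, and was tested in liver only. Where each probe set lies on the transcript was not known from the sources used here.

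In backfat, IGF1 probe set 1 read 585, 358, 210, 410 and 116 in low RFI restricted pigs and 670, 371, 358, 333 and 167 in high RFI restricted pigs. It read 800, 721, 498, 574 and 532 in low RFI ad libitum pigs and 774, 784, 429, 418 and 649 in high RFI ad libitum pigs. In all, 8 of the 10 restricted arrays lay below the lowest ad libitum array; the exceptions were the arrays numbered 1 of both restricted groups. The mean log2 intensity was 8.31 ± 0.783 in restricted and 9.23 ± 0.358 in ad libitum backfat (SD, n = 10 each). IGF1 at probe set 1 fell by 0.92 on the log2 scale (SE 0.257, limma adjusted p = 0.0116), a 1.9-fold difference. It was the only one of the 4 IGF axis probe sets tested that passed, while 25.8% of all 15498 probe sets tested in backfat passed and 10.7% passed with a lower signal. In tissue pieces, fewer cells of a type that express IGF1 and less IGF1 RNA per cell cannot be told apart.

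The within-line values of probe set 1 in backfat were -1.08 (SE 0.363) in low RFI and -0.77 (SE 0.363) in high RFI pigs. Their difference was -0.31 (SE 0.513, limma adjusted p = 1), and it was 0.022 (adjusted p = 1) without low RFI restricted replicate 5, the array with the high hepatocyte markers and the lowest IGF1 reading. Within the arrays numbered 1 and 2 the diet difference was -0.69 (adjusted p = 0.142), and within those numbered 3 to 5 it was -1.08 (adjusted p = 0.02). With the array set as a block it was -0.92 (adjusted p = 0.00161), and without low RFI restricted replicate 5 it was -0.76 (adjusted p = 0.0186). With the actin and GAPDH ratios as covariates it was -0.44 and the call was lost (adjusted p = 0.265). The log2 ratio of the 3' to the 5' GAPDH control probe set itself differed by diet in this tissue, at 1.88 ± 0.521 in restricted and 1.19 ± 0.365 in ad libitum backfat (SD, n = 10 each; exact permutation p = 0.00441, adjusted p = 0.0353 over 8 tests). The part of the GAPDH ratio in the IGF1 result was otherwise not tested.

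IGF1 probe set 3 had the same sign in backfat and did not pass the threshold. It read 929, 638, 511, 763 and 376 in low RFI restricted pigs and 1093, 957, 674, 691 and 516 in high RFI restricted pigs. Among ad libitum pigs it read 1209, 1045, 739, 759 and 871 in the low and 1226, 1089, 773, 625 and 915 in the high RFI line. The diets overlapped: 3 of 10 restricted arrays lay below every ad libitum array. The difference was -0.41 (SE 0.171, limma adjusted p = 0.0874), at -0.36 within the arrays numbered 1 and 2 and -0.44 within those numbered 3 to 5. With the array set as a block the same difference had an adjusted p = 0.0111, and with the actin and GAPDH ratios as covariates it was -0.11 (adjusted p = 0.721).

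The log2 difference of probe set 1 minus probe set 3 within an array, which does not depend on the scaling of that array, was -1.10 ± 0.371 in restricted and -0.59 ± 0.129 in ad libitum backfat (SD, n = 10 each). The diets therefore differed by -0.52 (exact permutation test within line, two-sided, p = 0.000283; adjusted p = 0.00113 over 4 tests), with -0.33 within arrays numbered 1 and 2 and -0.64 within those numbered 3 to 5. Thus the IGF1 probe sets recorded unequal changes with diet in backfat. This test held no control ratios as covariates, and the part of the GAPDH ratio, which differed by diet here, was not tested. Nor was it repeated without low RFI restricted replicate 5, where probe set 1 read 116 against a 40th percentile of 111. Adipocyte markers averaged 12.6 ± 0.301 log2 units in restricted and 12.9 ± 0.27 in ad libitum backfat, and skeletal muscle markers 8.73 ± 2.9 in restricted and 7.99 ± 3.12 in ad libitum backfat; their part in the result was not tested.

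**Figure D2:**
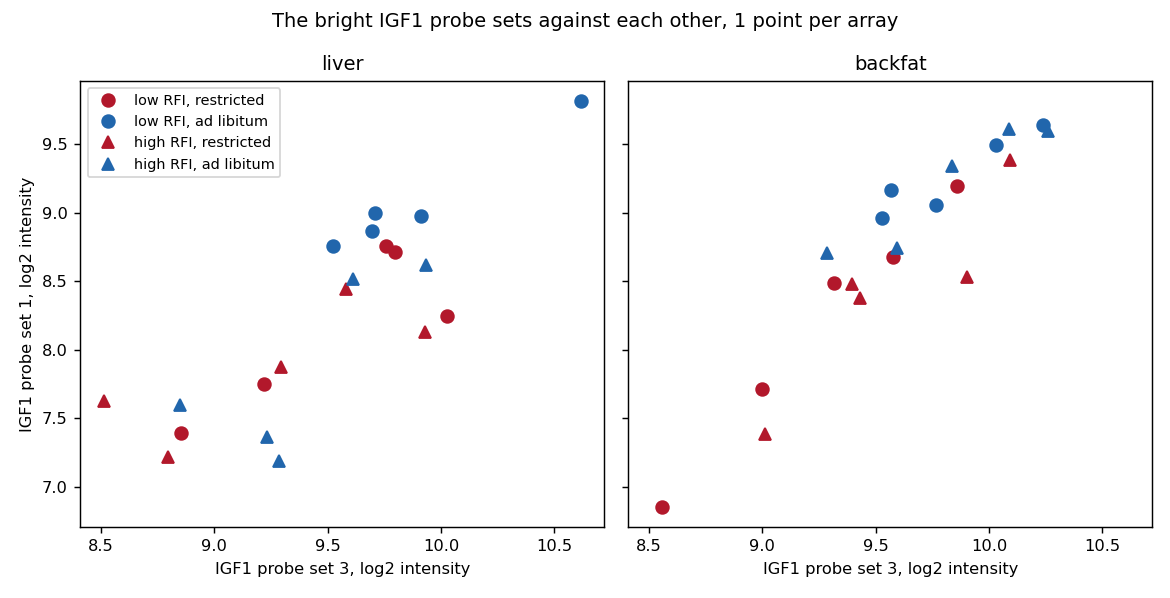
Log2 intensity of IGF1 probe set 1 (vertical axis) against IGF1 probe set 3 (horizontal axis), 1 point per array, liver left and backfat right; red is restricted, blue ad libitum, circles low and triangles high RFI. In backfat the restricted arrays extend to lower values of both probe sets and lie lower on probe set 1 for a given probe set 3, where the mean difference was -1.10 in restricted against -0.59 in ad libitum pigs.

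Probe sets 1 and 3 followed each other across arrays. Within the array sets Pearson's r was 0.954 and Spearman's rho 0.853 over the 12 backfat arrays numbered 3 to 5 (permutation p = 2e-05 and 0.00077), and r was 0.834 and rho 0.81 over the 8 numbered 1 and 2 (permutation p = 0.00278 and 0.0218). In liver r was 0.779 and rho 0.797 over the arrays numbered 3 to 5 (permutation p = 0.00397 and 0.00317). Over the 8 liver arrays numbered 1 and 2, r was 0.879 and rho 0.524 (permutation p = 0.0193 and 0.197), and r was 0.0542 without the 2 arrays farthest from the median, so that relation rests on those arrays. Adjusted over the 4 sets, the p-values of r were 0.0193 or less and those of rho 0.00308 to 0.197. Leaving out the 2 farthest arrays gave r between 0.731 and 0.889 in the other sets. Group means were left in, so differences between groups that both probe sets share count toward these values and their p-values. With group means removed and the array sets also centred, r was 0.911 over the 20 backfat arrays and 0.758 over the 20 liver arrays.

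In liver, IGF1 probe set 1 read 433, 420, 168, 215 and 304 in low RFI restricted pigs and 901, 504, 466, 432 and 511 in low RFI ad libitum pigs. It read 281, 349, 197, 149 and 235 in high RFI restricted pigs and 392, 145, 194, 165 and 367 in high RFI ad libitum pigs. The low RFI ad libitum group stood highest: each of its 5 arrays lay above all 5 of the high RFI ad libitum group. Over both lines the diet difference was -0.45 (SE 0.223, limma adjusted p = 0.418), and none of the 6 IGF axis probe sets tested passed for diet in liver, where 0.919% of 15677 probe sets did. The value was -0.14 within the arrays numbered 1 and 2 and -0.67 within those numbered 3 to 5.

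Averaged over diets, liver IGF1 probe set 1 differed between low and high RFI pigs by 0.77 (SE 0.223, unadjusted p = 0.00233, limma adjusted p = 0.481). Of the 10 low RFI arrays 7 lay above the highest high RFI array. None of the 6 tested probe sets passed for line, where 0.0447% of all probe sets tested in liver did. Of all these, 6.53% had an unadjusted p under 0.05 by limma. The difference was 0.97 within the arrays numbered 1 and 2 and 0.63 within those numbered 3 to 5. Probe set 3 gave 0.41 (SE 0.195, adjusted p = 0.761), at 0.34 and 0.45 within these sets. Probe set 2 gave -0.24 (SE 0.323, adjusted p = 0.947), at 0.48 and -0.72.

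Split by diet, the line difference of probe set 1 was 0.31 (SE 0.315, limma adjusted p = 0.995) in restricted and 1.23 (SE 0.315, unadjusted p = 0.000818, adjusted p = 0.566) in ad libitum livers. Over the whole array 0.0191% of probe sets passed for line in restricted livers and 0% in ad libitum livers, where 5.01% had an unadjusted p under 0.05 and 0.612% were higher in the low RFI line without overlap. Within lines, the diet difference was -0.91 (SE 0.315) in low RFI livers and 0.003 (SE 0.315) in high RFI livers. The difference between these, the interaction, was -0.91 (SE 0.445, unadjusted p = 0.0527, adjusted p = 0.999). By limma the interaction passed for 0 probe sets of the whole array, and 525 (3.35%) had an unadjusted p under 0.05. For probe set 3 the interaction was -0.20 (SE 0.389), with 866, 890, 463, 597 and 1043 in low RFI restricted and 1569, 964, 829, 735 and 836 in low RFI ad libitum livers. Its high RFI livers read 974, 767, 366, 444 and 628 under restriction and 979, 623, 461, 601 and 783 ad libitum, and all 4 groups overlapped. The line difference of probe set 3 was 0.31 in restricted and 0.51 in ad libitum livers, and that of probe set 2 was 0.26 and -0.73. For probe set 2 the interaction was 0.99 (SE 0.647, limma adjusted p = 0.999), opposite in sign to that of probe set 1. The difference of probe set 1 minus probe set 3 was higher by 0.36 in low RFI than in high RFI liver (exact permutation p = 0.0445, adjusted p = 0.0889 over the 4 tests).

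GHR, the receptor through which growth hormone induces IGF1, exceeded the 40th percentile on all 40 arrays. In liver it read 1311, 1526, 1569, 1215 and 650 in low RFI restricted pigs and 1379, 1082, 1290, 1856 and 790 in high RFI restricted pigs. Ad libitum livers read 1761, 1363, 1590, 1995 and 1365 in the low and 1243, 1928, 1431, 2773 and 1612 in the high RFI line. In all, 4 of the 10 restricted arrays lay below the lowest ad libitum array, and the others overlapped with it. The diet difference was -0.45 (SE 0.175, 95% interval -0.81 to -0.09, unadjusted p = 0.0175, limma adjusted p = 0.268), with -0.41 in low RFI and -0.49 in high RFI pigs. It was -0.24 within the arrays numbered 1 and 2 and -0.59 within those numbered 3 to 5. For diet in liver, 12.4% of all 15677 probe sets tested had an unadjusted p under 0.05 by limma. The line difference in liver was -0.07 (SE 0.175, adjusted p = 0.979), at 0.11 and -0.20 within these array sets.

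Backfat GHR ranged from 1034 to 2210 in restricted pigs and from 1425 to 1883 in ad libitum pigs. The restricted arrays spread to both sides of the ad libitum ones, with 4 of 10 below and 2 of 10 above all of them. The SD on the log2 scale was 0.354 in restricted and 0.114 in ad libitum backfat; the difference in spread was not tested. The diet difference was -0.14 (SE 0.114, limma adjusted p = 0.405), at -0.25 within the arrays numbered 1 and 2 and -0.06 within those numbered 3 to 5. The line difference was -0.16 (SE 0.114, adjusted p = 0.816), at -0.25 and -0.10 within these sets.

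The binding protein IGFBP1 had a bright and a dim probe set. In liver the bright one read 3456, 3089, 2547, 12001 and 13163 in low RFI restricted pigs and 3600, 16606, 2042, 2458 and 9314 in low RFI ad libitum pigs. It read 7400, 11596, 818, 8559 and 9386 in high RFI restricted pigs and 1333, 10410, 10199, 13673 and 12624 in high RFI ad libitum pigs. Pigs within a group differed more than the groups did: the SD of log2 intensity within the 4 groups was 1.14 to 1.57. The diet difference was -0.15 (SE 0.531, 95% interval -1.25 to 0.95, limma adjusted p = 0.951), and the line difference -0.35 (SE 0.531, adjusted p = 0.951). Within the arrays numbered 1 and 2 and those numbered 3 to 5 these were 0.036 and -0.27 for diet and -0.22 and -0.44 for line. The interaction was 0.55 (SE 1.06, adjusted p = 0.999), at -2.56 and 2.62 within the sets, so its sign turned between them. With 5 arrays a group these estimates were imprecise, so the lack of a call does not show that IGFBP1 was unchanged.

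In backfat the bright IGFBP1 probe set exceeded the 40th percentile on 1 of 20 arrays and was not tested. That array was low RFI restricted replicate 5, at 308, the one with the high hepatocyte markers. The remaining backfat arrays read 7.39 to 80.0. The dim IGFBP1 probe set exceeded the 40th percentile on 3 of 20 arrays in each tissue, read 9.39 to 125 in liver and 8.64 to 163 in backfat, and was tested in neither. With no filter its line difference in backfat was 1.5 (SE 0.421, unadjusted p = 0.00177, limma adjusted p = 0.332), with 3 of 10 low RFI and 0 of 10 high RFI arrays above the 40th percentile, so most of the readings behind that value lie below it.

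IGFBP2 read 2291, 1927, 5209, 6694 and 1815 in low RFI restricted livers and 1272, 1063, 3475, 1777 and 2078 in low RFI ad libitum livers. It read 1884, 2597, 5298, 6551 and 4669 in high RFI restricted livers and 3526, 2516, 2469, 3788 and 4935 in high RFI ad libitum livers. The 4 highest readings were all restricted, and the low RFI ad libitum group held the 3 lowest. The diet difference was 0.50 (SE 0.276, limma adjusted p = 0.489), at 0.21 within the arrays numbered 1 and 2 and 0.69 within those numbered 3 to 5. The line difference was -0.61 (SE 0.276, unadjusted p = 0.0389, adjusted p = 0.732), at -0.72 and -0.53 within these sets. For line in liver, 6.53% of all probe sets tested had an unadjusted p under 0.05 by limma. The sign of IGFBP2 is opposite to that of IGF1 probe sets 1 and 3 in both comparisons. It is also opposite to that of IGF1 probe set 2 for diet but not for line. The array sets also ran opposite: the median was 2109 for IGFBP2 and 927 for IGF1 probe set 3 on liver arrays numbered 1 and 2, and 4229 for IGFBP2 and 615 for IGF1 on those numbered 3 to 5.

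In backfat IGFBP2 exceeded the 40th percentile on 13 of 20 arrays, read 8.43 to 475 in restricted and 10.2 to 222 in ad libitum pigs, and had a diet difference of 0.05 (SE 0.709, limma adjusted p = 0.97), at 0.26 within the arrays numbered 1 and 2 and -0.090 within those numbered 3 to 5. The highest reading was again low RFI restricted replicate 5, without which the difference was -0.22 (adjusted p = 0.855). No IGF axis probe set passed for line in backfat, with differences from -0.16 to -0.01 at the 4 tested, where 0.0194% of all probe sets did. Skeletal muscle markers averaged 9.56 ± 3.18 log2 units in low and 7.16 ± 2.25 in high RFI backfat (SD, n = 10 each). Their part in these line differences was not tested. The line difference of IGFBP2 was -0.85 within the arrays numbered 1 and 2 and 0.55 within those numbered 3 to 5.

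**Figure D3:**
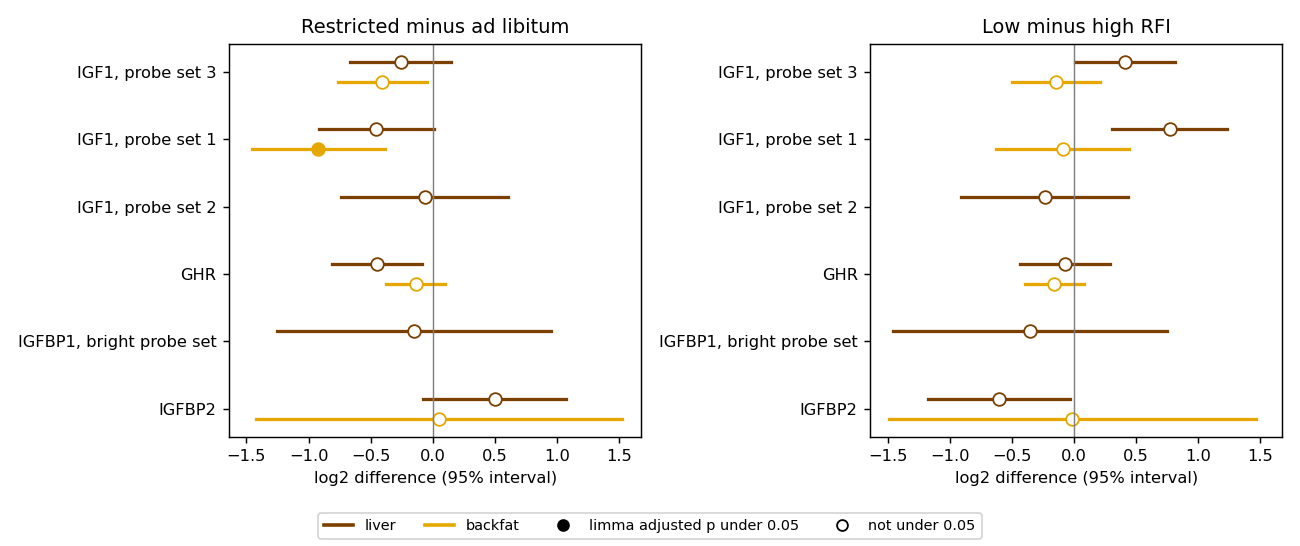
Log2 differences of the tested IGF axis probe sets, restricted minus ad libitum on the left and low minus high RFI on the right, with 95% intervals from limma; brown is liver and yellow backfat, and a filled point has an adjusted p under 0.05. The one filled point is IGF1 probe set 1 in backfat for diet, at -0.92; IGFBP1 in liver and IGFBP2 in backfat have the widest intervals.

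Set between tissues, IGFBP2 showed the largest difference of the tested members. It read 1063 to 6694 in liver and 8.43 to 475 in backfat, without overlap. The fitted log2 difference of liver minus backfat was 5.0 (SE 0.397, limma adjusted p = 2.4e-14). Since 7 of 20 backfat readings lay below the 40th percentile of their array, these readings were raised to that percentile for a more cautious estimate. By the means of log2 intensity IGFBP2 was then 19.3-fold higher in liver, a value given without an interval. The tissues differed past the threshold at 78.8% of the 14001 probe sets tested in both, with 27.4% higher in liver and 51.4% lower, and 7.23% higher without overlap; the median of all was -0.25. IGFBP1 at its bright probe set read 818 to 16606 in liver, where it exceeded the 40th percentile on 20 of 20 arrays, and 7.39 to 308 in backfat, also without overlap. This probe set was not among the 14001 tested in both tissues, so the 7.23% does not cover it. With the 19 backfat readings below the 40th percentile raised to it in the same way, IGFBP1 was 52.3-fold higher in liver, again without an interval. Mean log2 intensities as measured were 12.5 in liver and 5.49 in backfat. The dim IGFBP1 probe set, tested in neither tissue, gave a liver minus backfat difference of 0.003 with no filter (limma adjusted p = 0.993). Most of its readings lay below the 40th percentile in both tissues.

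IGF1 probe sets 1 and 3 and GHR differed less between the tissues than IGFBP2 did, and IGF1 probe set 1 passed as lower in liver. IGF1 probe set 1 had a mean log2 intensity of 8.24 ± 0.719 in liver and 8.77 ± 0.758 in backfat (SD, n = 20 each), a difference of -0.53 (SE 0.177, limma adjusted p = 0.00703) that was -0.29 after quantile normalization (adjusted p = 0.147) and -0.79 with the actin and GAPDH ratios as covariates (adjusted p = 0.000107). Probe set 3 was at 9.51 ± 0.506 in liver and 9.62 ± 0.447 in backfat, a difference of -0.11 (SE 0.134, adjusted p = 0.454) that turned to 0.06 after quantile normalization (adjusted p = 0.691) and passed at -0.30 with the covariates (adjusted p = 0.0317). GHR was at 10.5 ± 0.457 in liver and 10.6 ± 0.266 in backfat, with a difference of -0.15 (SE 0.107, adjusted p = 0.185). Within the arrays numbered 1 and 2 and those numbered 3 to 5, the tissue difference was 5.57 and 4.63 for IGFBP2 as fitted, -0.66 and -0.44 for IGF1 probe set 1, -0.12 and -0.10 for probe set 3, and -0.0052 and -0.25 for GHR.

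By median, the 8 groups of IGF1 probe set 1 ran from 649 in high RFI ad libitum backfat through 574 in low RFI ad libitum backfat and 504 in low RFI ad libitum liver to 358 in both restricted backfat groups, 304 in low RFI restricted liver, 235 in high RFI restricted liver and 194 in high RFI ad libitum liver. Neighbours in this order overlapped in each case.

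A direct test of whether the diet difference in liver departed from that in backfat passed for none of the 4 IGF axis probe sets tested, where 10.9% of 14001 probe sets passed. The liver minus backfat difference was 0.47 for IGF1 probe set 1 (SE 0.354, limma adjusted p = 0.46), 0.15 for IGF1 probe set 3, 0.45 for IGFBP2 and -0.31 for GHR (SE 0.215, adjusted p = 0.404). So although IGF1 probe set 1 passed in backfat and not in liver, its response was not shown to differ between them.

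Of 72 other genes listed around the axis (receptors, other ligands and binding proteins, binding protein proteases, growth hormone and IGF signalling, FOXO factors with their targets, and liver transcription factors), 36 were tested in liver and 32 in backfat, each by its brightest probe set. In liver none passed for diet (median log2 difference -0.04, against 0.02 over all probe sets) and none for line. IGFALS, the acid-labile subunit that holds IGF1 in its large circulating complex, gave -0.37 for diet (SE 0.206, limma adjusted p = 0.485) and 0.15 for line in liver. IGF2, the second ligand, gave -0.06 for diet in liver and 0.18 in backfat (adjusted p = 0.932 and 0.587). SOCS2 was not among the genes tested.

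In backfat 2 of 32 listed genes rose and 2 fell with restriction, while 15.1% of all probe sets rose and 10.7% fell; the median of the listed genes was 0.14, against 0.08 over all probe sets. IGF1R, the receptor that binds IGF1, rose by 0.65 (SE 0.152, limma adjusted p = 0.00382); its other tested probe set gave 0.19 and did not pass. In liver IGF1R, by another of its probe sets, gave -0.13 (SE 0.184, adjusted p = 0.854). Among kinases below the receptor, PDPK1 rose by 0.33 (SE 0.0973, adjusted p = 0.0159) and AKT2, an insulin-responsive kinase of fat, fell by 0.65 (SE 0.126, adjusted p = 0.000858). CDKN1A, a cell-cycle inhibitor listed among FOXO targets, fell by 1.18 (SE 0.187, adjusted p = 0.00014). The calls of IGF1R, PDPK1 and AKT2 were lost within the arrays numbered 1 and 2 (adjusted p = 0.255, 0.591 and 0.0992), and those of IGF1R and PDPK1 also with the actin and GAPDH ratios as covariates (0.083 and 0.198). No listed gene passed for line or for the interaction in backfat.

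**Figure D4:**
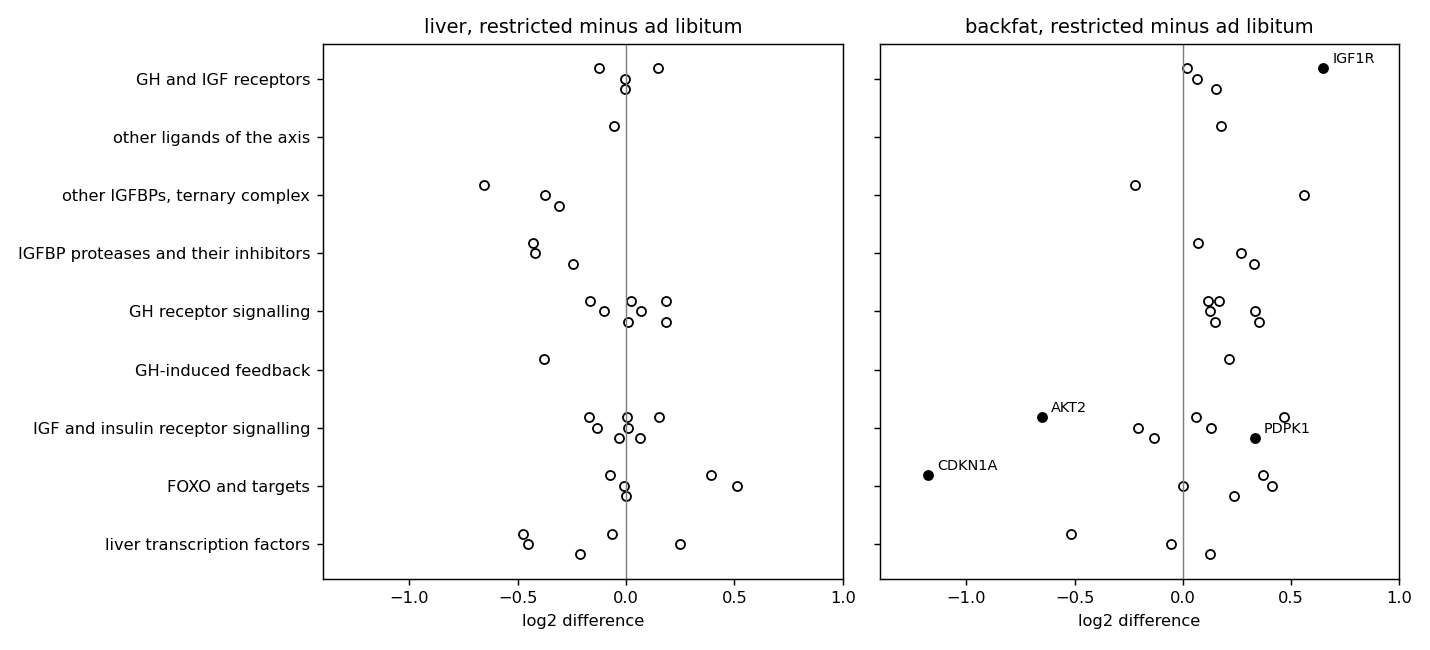
Log2 differences of restricted minus ad libitum for the listed genes around the IGF axis, grouped by role, with liver (36 genes) on the left and backfat (32 genes) on the right; filled points have a limma adjusted p under 0.05. The filled points, all in backfat, are IGF1R and PDPK1 above 0 and AKT2 and CDKN1A below 0.

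For the diet effect in liver against that in backfat, PDPK1 gave -0.47 (SE 0.127, limma adjusted p = 0.0132) and CDKN1A 1.69 (SE 0.263, adjusted p = 4.01e-05), and no other of the 31 listed genes tested passed. IGF1R gave -0.60 (SE 0.232, adjusted p = 0.0933). Between tissues 8 of 31 listed genes were higher in liver and 16 lower. The transcription factor HNF4A (5.99), STAT3 (1.39), the adaptor GRB2 (0.89) and IGF2 (0.75) had the largest values on the liver side, while a second GRB2 probe set gave -0.78. On the backfat side stood the binding protein IGFBP6 (-5.0), the protease HTRA1 (-3.36), the binding protein IGFBP5 (-3.14) and SESN1 (-2.26). Hence among the binding proteins tested, IGFBP2 was higher in liver and IGFBP5 and IGFBP6 were lower. IGF1R gave -1.36, with 0.51 at a second probe set called in the opposite direction.

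Across the 20 liver arrays IGF1 probe set 3 and IGFBP2 ran opposite, with a Pearson correlation of -0.71 of log2 intensities. This was -0.61 with group means removed and -0.22 when the array sets were also centred. IGF1 probe set 3 and GHR gave -0.16, -0.34 and -0.51 by these steps in liver, and 0.09, -0.16 and 0.50 in backfat. These are descriptions over arrays that share a tissue and array sets, and carry no test.

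The genes whose log2 intensity followed each member most closely over the 20 arrays of a tissue (Pearson's r, with r after removal of group means in second place) were, for IGF1 in liver, SNRPB2 (0.82, 0.81), WDR26 (0.82, 0.80) and PHF20 (0.81, 0.77). For liver IGFBP1 they were CYR61, a secreted matrix protein (0.75, 0.76), PCK1, a key enzyme of gluconeogenesis (0.70, 0.70), and LOC100522498 (0.69, 0.78). For liver IGFBP2 they were SIAH2 (0.79, 0.84), AAMP (0.78, 0.69) and LHFPL2 (0.78, 0.66). For liver GHR they were BDH1, an enzyme of ketone body metabolism (0.80, 0.73), MACROD1 (0.80, 0.75) and OAT, the ornithine aminotransferase (0.79, 0.70). Being the highest among all tested genes with a single symbol, over only 20 arrays, these values are raised by the selection itself and carry no test.

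In backfat the closest genes to IGF1 were LOC100153150 (0.88, 0.85), GTF2H3 (0.86, 0.83) and CPEB4 (0.85, 0.80). RHOB (0.86, 0.86), TAGLN2 (0.85, 0.88) and ERI3 (0.80, 0.81) followed IGFBP2, and GNLY (0.75, 0.82), YBEY (0.73, 0.71) and CELF2 (0.72, 0.72) followed GHR. With array sets centred too, r lay between 0.60 and 0.88 for these backfat genes and between 0.64 and 0.79 for the liver genes. The backfat genes were selected in the same way, and the r that selection alone gives was not worked out.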

How the data were processed

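RNA of liver and backfat was measured on 40 1-colour arrays, 5 per group. The authors deposited 1 table of linear intensity per probe set, scaled per array; the submitters' processing notes list affy and MAS5 with no version. After 124 controls were left out, log2 was taken with no offset. For each tissue a group-means model was fitted with limma 3.58.1 in R 4.3.3 (lmFit, eBayes with an intensity trend) to probe sets above the array's 40th percentile on at least 5 of 20 arrays, with Benjamini-Hochberg adjustment over all of these and a threshold of 0.05. Contrasts were restricted minus ad libitum, low minus high RFI, their interaction, and liver minus backfat over all 40 arrays. Exact permutations within line or diet (63504 arrangements, two-sided) were run in Python 3.11.15 with numpy 2.4.6 and scipy 1.17.1, and figures were drawn with matplotlib 3.10.9. The fit recovered 86% of simulated log2 changes of 1 in liver and 82% in backfat, and 26% and 46% of changes of 0.5. These rates rest on 50 changed probe sets of the whole array and are not those of the IGF axis probe sets. The SE of the diet difference was as large as 0.531 for IGFBP1 in liver and 0.709 for IGFBP2 in backfat.

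The members and gene lists were chosen with earlier results of these data known. The IGF axis probe sets are all named; from the lists, up to 4 genes a comparison and direction with the largest change past the threshold are named, with IGF1R, IGFALS, SOCS2 and IGF2 where measured, and for each member the 3 genes with the highest r. The line differences under each diet, the tests of the IGF1 probe sets against each other and the block of array sets were added after values had been seen. So were the tissue estimates with raised backfat readings. Alternatives were quantile normalization, no filter, a 60th percentile filter, an offset of the 20th percentile, no trend, the replicate number as a block, each array left out, each array set alone, and the actin and GAPDH ratios as covariates. Arrays with the same number correlated weakly in their deviations (median r 0.183 in liver and 0.202 in backfat, lowest -0.00429 and 0.0198). Yet 12 of 20 liver and 13 of 20 backfat arrays correlated best with an array of their own number. What share chance gives was not worked out. The labels do not say that the numbers pair the pigs, so the main fits held no term for them and ignored any such structure. The arrays hold no counts, and their number limits the precision.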

Additional observations from a re-analysis of the deposited data

Results flagged for a closer look

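Of 56 combinations of probe set and group examined, 4 held 1 array that stood apart from the other 4 by Dixon's test, at a level that chance reaches in about 1 in 20 groups. IGFBP1 at its bright probe set read 1333 in high RFI ad libitum liver replicate 1, against 10199 to 13673 on the other arrays of that group, and 818 in high RFI restricted liver replicate 3, against 7400 to 11596. IGF1 probe set 1 read 901 in low RFI ad libitum liver replicate 1, against 432 to 511 on the other 4, and without this array the line difference in liver was 0.68. GHR read 1723 in low RFI ad libitum backfat replicate 3, against 1580 to 1613.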

How the results depend on the processing

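Over 69 gene results and 2474 alternative values, 2370 kept their direction and their side of the threshold, 10 lost the call, 6 gained it and 88 changed sign, none of the last at a result past the threshold. The causes were not tested. For diet in liver, 144 probe sets passed; 74 did without the intensity trend, 328 with the replicate block, 0 and 44 within the arrays numbered 1 and 2 and 3 to 5, 384 with the control ratios as covariates, 272 with the array set block, and 56 to 203 with 1 array left out. For diet in backfat it was 3999, with 469 within numbers 1 and 2, 1840 with the covariates and 3432 to 4547. For line in liver it was 7, with 4 and 2 within the sets, 13 with the covariates and 5 to 9. For line in backfat it was 3, with 1 without filter, 20 with the replicate block, 1 within numbers 1 and 2, 5 with the covariates, 6 with the array set block and 1 to 7. The interaction passed for 0, with 0 to 1 in liver with 1 array left out and 1 in backfat within numbers 3 to 5. The 11038 calls between tissues were 7115 with the stricter filter, and the 1524 for diet by tissue were 254 and 708 within the sets.

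The replicate block gave IGF1 probe set 3 for diet in backfat an adjusted p = 0.0115 and took no call away; the numbers were not shown to pair the pigs, and 12 of 20 liver and 13 of 20 backfat arrays correlated best with arrays of their own number. Probe set 3 also passed with high RFI restricted replicate 1 or low RFI restricted replicate 1 left out (-0.47 and -0.48, adjusted p = 0.0495 and 0.038), and over all 20 such fits lay between -0.48 and -0.32. IGF1 probe set 1 kept its call in each of them, between -1.05 and -0.76 (adjusted p = 0.00366 to 0.0237).

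Signs turned at small or imprecise values. Within numbers 1 and 2 these were IGFBP1 for diet in liver (0.036) and for the interaction (-2.56), GHR (0.11) and IGF1 probe set 2 (0.48) for line in liver, IGF2 for diet (-0.20) and IGF1R for the interaction (-0.29) in backfat, and GHR (0.017) and IGFBP2 (-0.047) for diet by tissue. Within numbers 3 to 5 they were, in liver, IGF1 probe set 2 (0.49), IGF1R (0.017) and IGF2 (0.076) for diet, IGF1R (0.16) and IGF2 (0.10) for line, and GHR (-0.016), IGF1 probe set 3 (0.089) and IGF1R (0.58) for the interaction; in backfat, IGFBP2 for diet (-0.090) and line (0.55), IGF2 for line (0.15), and GHR (0.074) and IGF2 (0.015) for the interaction. With the covariates they were IGFBP1 for diet (0.30) and IGF2 for line (0.011) in liver, IGFBP2 for diet (-0.14) and line (0.18) and IGF2 for the interaction (0.16) in backfat, and IGF1 probe set 3 for diet by tissue (-0.073). Quantile normalization turned IGF2 for line in liver (0.0062), IGFBP2 for diet in backfat (-0.052) and IGF1 probe set 3 between tissues (0.062), and the offset turned IGFBP2 for line in backfat (0.068).

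With 1 array left out, in liver, IGF1 probe set 2 ranged from -0.22 to 0.13, IGFBP1 from -0.46 to 0.20 and IGF2 from -0.12 to 0.010 for diet. GHR ranged from -0.15 to 0.036 and IGF2 from -0.069 to 0.065 for line, and GHR from -0.10 to 0.29, IGFBP1 from -0.15 to 1.17 and IGF1R from -0.28 to 0.11 for the interaction. In backfat, IGFBP2 ranged from -0.31 to 0.51 for diet and from -0.29 to 0.45 for line. IGF1 probe set 1 ranged from -0.22 to 0.074 and IGF2 from -0.17 to 0.076 for line, and IGF1 probe set 1 from -0.57 to 0.022, IGF1R from -0.047 to 0.21 and IGF2 from -0.29 to 0.23 for the interaction. IGFBP2 ranged from -0.013 to 0.80 for diet by tissue.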
